A study of Mus musculus with 8 samples.

Results

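Wild-type (WT) effector regulatory T cells (eTreg) were compared with WT central regulatory T cells (cTreg) for chromatin accessibility, with 2 ATAC-seq libraries of each, and the result was read locus by locus. The 4 libraries belong to a series of 8; the other 4, which entered the count filter, the shared estimate of the spread and a check of the difference between genotypes, are cTreg and eTreg cells deficient in Pggt1b, which encodes a subunit of an enzyme that attaches lipid groups to proteins. All cells were Treg cells sorted from spleen and lymph nodes of mixed bone marrow chimeras, in which marrow of different donors develops in the same host. The labels give neither the strains or ages, nor the allele or Cre behind the deficiency, nor the surface markers that parted cTreg from eTreg, nor whether replicate libraries were made from different chimeras. P-values therefore reflect only how far replicate libraries lay apart, and that distance may be technical. All 79758 sites of the deposited table (mm9, width 1 to 4101 bp, median 104 bp) were members of the comparison, and 75352 passed the filter on low counts.

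Treg cells restrain immune responses and are marked by the transcription factor Foxp3. Central Treg cells resemble resting T cells: they recirculate through lymphoid organs by means of homing receptors such as that encoded by Ccr7, and use the survival receptor Il7r. Effector Treg cells have responded to antigen, carry receptors such as TIGIT, KLRG1 and 4-1BB (Tnfrsf9), and can secrete the suppressive cytokine IL-10. In ATAC-seq a transposase cuts open DNA, so the count at a site measures how accessible gene promoters and distal elements are, not how much a gene is expressed. CD44 is a common gate for these subsets, so the Cd44 locus may be tied to the sort.

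A locus is here the gene body with 25 kb on either side. No annotation of mm9 was used: the windows of 72 Treg loci in 6 lists were placed from recalled gene positions, in part by shifting positions recalled for a later build, and a window may hold elements of a neighbouring gene. The gene starts from which distances are counted were written down after sites near the windows had been seen, and some may have been drawn towards those sites. A site lying at a recalled start is therefore no check of the placement. At 52 of the 72 loci a site of at least 200 bp lay within 2 kb of the recalled start; at the other 20, Foxp3, Tcf7, Rora and Itgae among them, none did. Where there was such a site, the widest tested one is called start-proximal here; 35 of the 52 cover the recalled start itself, and the others lie beside it.

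Values are CPM, counts scaled to library size after TMM normalisation, and a site is called where edgeR's quasi-likelihood test gave an adjusted p under 0.05 over all tested sites. Over all sites, 13.8% were called higher in eTreg and 14.9% lower, 28.7% together, and the median log2 fold change was 0.00. WT totals ran from 11194290 to 14974253 counts. Log2 CPM correlated across sites at r = 0.972 between the 2 cTreg libraries and 0.971 between the 2 eTreg libraries, against 0.873 to 0.879 between subsets, sites not being independent replicates. With 2 libraries against 2, an exact permutation test of a single value cannot go below p = 0.333, so none is given. Sites named by the fixed rule are the called ones of largest change; others, such as start-proximal sites, were picked after their values were seen.

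The promoters of 4 genes whose start-proximal sites were called are shown, chosen after their values were seen. They are the 250 bases before the RefSeq start on GRCm38.p6, which is not the build of the counts. Capitals mark matches to 4 motifs searched on both strands: AP-1 (TGANTCA, in 6.75% of 32851 promoters of the same length), TCF/LEF (CTTTGNT, 15.98%), Runx (TGTGGT, 14.05%) and FOXO (GTAAACA, 3.17%). Of the 72 loci, 56 had a promoter in that table. Tigit and Tnfrsf8 had start-proximal sites that were higher in eTreg, Il7r and Btg1 start-proximal sites that were lower. That of Il7r lies beside its recalled start, and its call was lost without cTreg library 2 or eTreg library 1; the site that covers the start, chr15:9459361-9459727, also fell, from 37.2 and 37.5 to 26.2 and 25.0 CPM.
Tigit: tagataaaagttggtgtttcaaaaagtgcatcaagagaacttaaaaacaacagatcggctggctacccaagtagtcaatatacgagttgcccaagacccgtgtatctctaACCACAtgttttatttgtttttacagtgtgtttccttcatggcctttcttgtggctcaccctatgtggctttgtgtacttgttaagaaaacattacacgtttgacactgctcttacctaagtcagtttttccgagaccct
Tnfrsf8: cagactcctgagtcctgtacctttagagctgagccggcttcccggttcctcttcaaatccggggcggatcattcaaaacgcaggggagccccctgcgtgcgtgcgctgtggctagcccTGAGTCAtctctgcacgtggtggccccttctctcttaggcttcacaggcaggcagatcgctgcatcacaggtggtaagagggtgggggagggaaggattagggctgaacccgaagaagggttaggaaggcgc
Il7r: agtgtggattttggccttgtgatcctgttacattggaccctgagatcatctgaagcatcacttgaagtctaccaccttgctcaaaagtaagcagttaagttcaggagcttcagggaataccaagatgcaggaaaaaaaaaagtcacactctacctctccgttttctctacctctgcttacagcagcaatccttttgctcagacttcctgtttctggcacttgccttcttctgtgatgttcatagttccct
Btg1: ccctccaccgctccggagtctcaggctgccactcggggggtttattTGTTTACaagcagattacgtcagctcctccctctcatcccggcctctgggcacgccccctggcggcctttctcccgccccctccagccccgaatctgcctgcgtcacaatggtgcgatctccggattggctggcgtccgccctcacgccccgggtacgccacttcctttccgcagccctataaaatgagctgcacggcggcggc
The Tigit stretch held 1 Runx match, Tnfrsf8 1 AP-1 match, Btg1 1 FOXO match, and Il7r no match to the 4 motifs.

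The lists were chosen with earlier results of these data known, so their shares beside those of all sites are descriptive and test nothing. Loci of the central and quiescence list lost accessibility in eTreg more often than they gained it. Of 643 tested sites at its 17 loci, 230 fell (35.8%, against 14.9% of all sites) and 32 rose (4.98%, against 13.8%), and the median log2 fold change was -0.54. Loci of effector receptors and suppressive molecules gained accessibility more often than they lost it: 104 of 378 sites rose (27.5%), 34 fell (8.99%), and the median was 0.24. At effector transcription factor loci both directions occurred about as often, with 47 rises (12.8%) and 49 falls (13.3%) among 368 sites and a median of -0.09. Ikzf1 alone held 19 of these falls. By locus, 7 of this list had more rises, 4 more falls and 2 as many of each. Treg identity loci held 53 falls and 18 rises among 241 sites (median -0.28), and loci of genes induced by or restraining the T cell receptor held 56 falls and 7 rises among 192 (median -0.39). At the 72 loci together, 209 of 1847 sites rose and 424 fell; 37 loci had more falls, 24 more rises and 11 as many of each, and 45 held calls in both directions. The subset difference itself differed between genotypes (an interaction call) at 35 of the 1847 sites, 1.89% against 1.51% of all sites.

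The lists' counts depended on the number of libraries, while the balance within 4 of them did not turn. With each of the 4 WT libraries left out in turn, falls at central loci numbered 155 to 169 against 14 to 26 rises, rises at effector receptor loci 66 to 71 against 16 to 21 falls, falls at identity loci 26 to 37 against 6 to 9 rises, and falls at receptor-induced loci 27 to 38 against 2 to 4 rises. The effector transcription factor list held 23 to 27 rises and 24 to 30 falls.

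**Figure D1:**
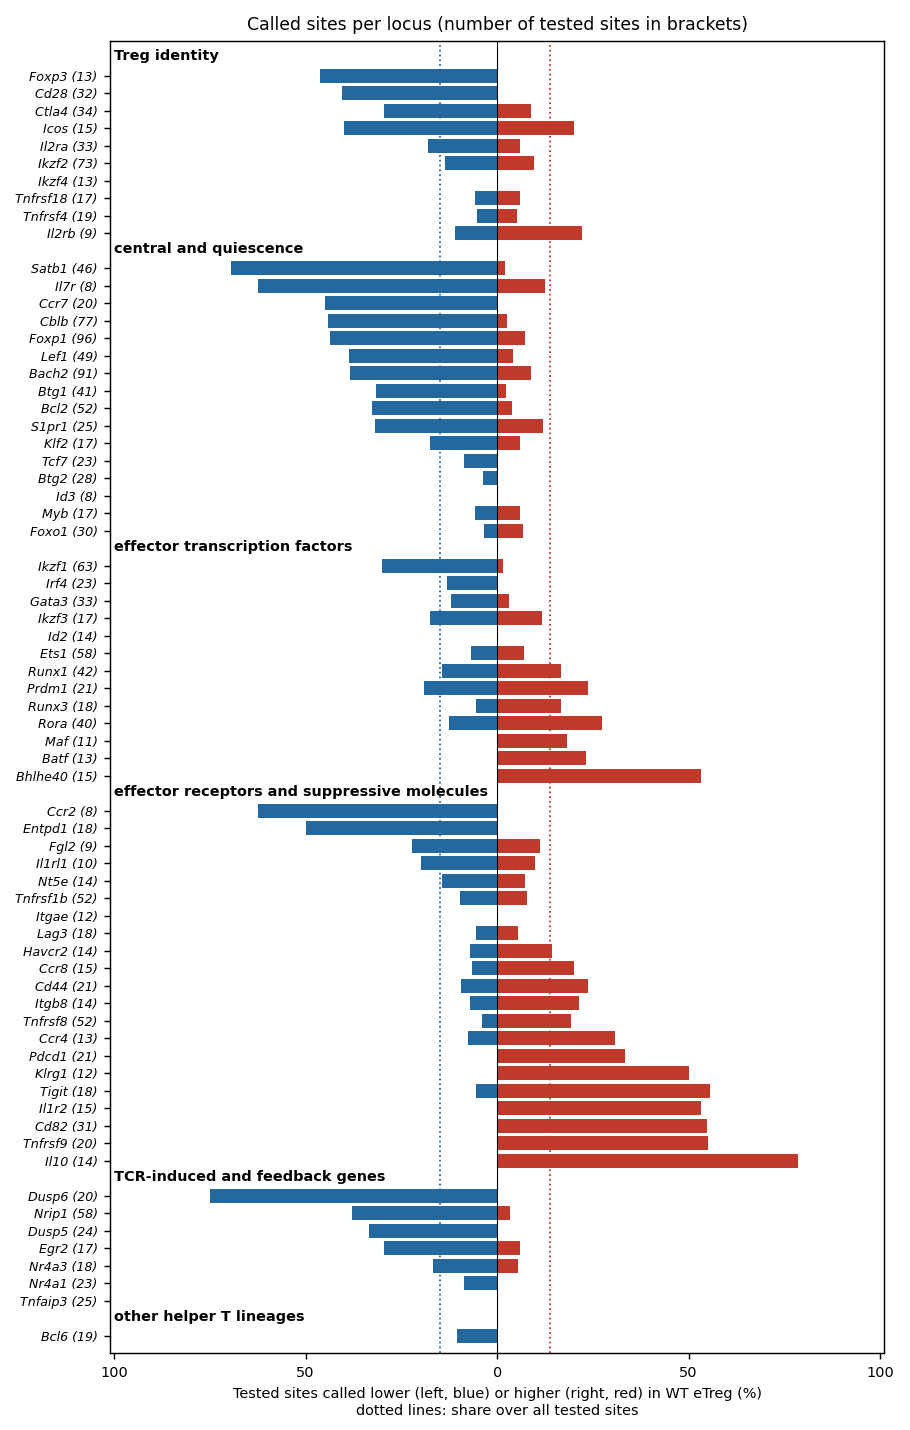
Share of tested sites called lower (blue, left) or higher (red, right) in WT eTreg at each reported locus with at least 8 tested sites, in percent, grouped by list, with dotted lines at 14.9% and 13.8%, the shares over all tested sites. Dusp6 and Satb1 reach furthest to the left, and Il10, Tigit, Tnfrsf9 and Cd82 furthest to the right.

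Satb1, a chromatin organiser of T cells, had the most one-sided locus among the central genes: 32 of 46 tested sites fell and 1 rose (median log2 fold change -2.05). At chr17:51997057-51997164, 24.4 kb upstream of the recalled start, the cTreg libraries had 8.94 and 9.11 CPM and the eTreg libraries 0.371 and 0.950. This was the largest fall named at any locus (log2 fold change -3.67 ± 0.39 SE, edgeR adjusted p = 1.08e-09). At chr17:51901953-51902077, 70.7 kb downstream, values were 27.5 and 32.8 CPM in cTreg and 7.14 and 6.65 in eTreg, a fall of 2.13 on the log2 scale. The groups were far apart at both sites. The strong start-proximal site of Satb1, chr17:51971281-51972814, had 105 and 111 CPM in cTreg and 99.0 and 93.0 in eTreg, a log2 fold change of -0.17 that was not called (edgeR adjusted p = 0.120). In at least 1 alternative fit this site was called lower, and its log2 fold change ranged from -0.25 to -0.13 over those fits. The single rise was at chr17:51952239-51953287, from 30.0 and 33.1 to 44.6 and 41.1 CPM; it lost its call without cTreg library 1 (edgeR adjusted p = 0.126) and without eTreg library 1.

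The homing and survival receptors of central cells fell over most of their called sites. Ccr7, the receptor that guides T cells to lymph node T zones, had 9 falls and no rise among 20 sites (median -1.01). Its start-proximal site, chr11:99016300-99016769, had 44.1 and 39.9 CPM in cTreg and 24.7 and 26.1 in eTreg (log2 fold change -0.72 ± 0.12 SE). A group of 3 called sites 13.2 to 16.1 kb upstream fell by 0.93 to 1.32. Il7r, the interleukin 7 receptor chain, had 5 falls and 1 rise among only 8 sites. At chr15:9463063-9463545, 3.60 kb upstream of the Il7r start, values were 56.1 and 68.2 CPM in cTreg and 36.9 and 38.9 in eTreg. S1pr1, a receptor for leaving lymphoid organs, had 8 falls and 3 rises among 25 sites.

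Large quiescence loci lost many weak and middling sites. At Bach2, a repressor of effector programmes, 35 of 91 sites fell and 8 rose; at Foxp1, a forkhead factor of resting T cells, 42 of 96 fell and 7 rose. Lef1, a TCF family factor, had 19 falls and 2 rises among 49 sites. At chr3:130870792-130870966 the Lef1 values were 8.13 and 7.76 CPM in cTreg and 1.48 and 1.09 in eTreg (log2 fold change -2.64 ± 0.33 SE). Cblb, a ubiquitin ligase that limits T cell activation, had 34 falls and 2 rises among 77 sites, and its summed accessibility went from 1387 ± 39.4 to 971 ± 4.95 CPM (SD, n = 2 each). At chr16:52155301-52155635 the Cblb values were 13.5 and 18.3 CPM in cTreg and 2.69 and 2.65 in eTreg. The antiproliferative gene Btg1 had 13 falls and 1 rise among 41 sites; its start-proximal site fell from 185 and 200.2 to 153 and 140 CPM. At Bcl2, a survival gene, 17 of 52 sites fell and 2 rose, but the start-proximal site was among the rises, from 86.5 and 82.1 to 109 and 106 CPM (log2 fold change 0.35 ± 0.09 SE); without cTreg library 2 that call was lost (edgeR adjusted p = 0.0713).

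Other members of the list showed few calls. Tcf7, the partner of Lef1, had 2 falls and no rise among 23 sites, Btg2 1 fall among 28, Foxo1 2 rises and 1 fall among 30, Myb 1 of each among 17, and Id3 no call among 8. Klf2, a factor that drives S1pr1, had 3 falls and 1 rise among 17 sites. The shares called lower at Tcf7, Btg2, Foxo1, Myb and Id3 were all under the 14.9% of all sites.

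**Figure D2:**
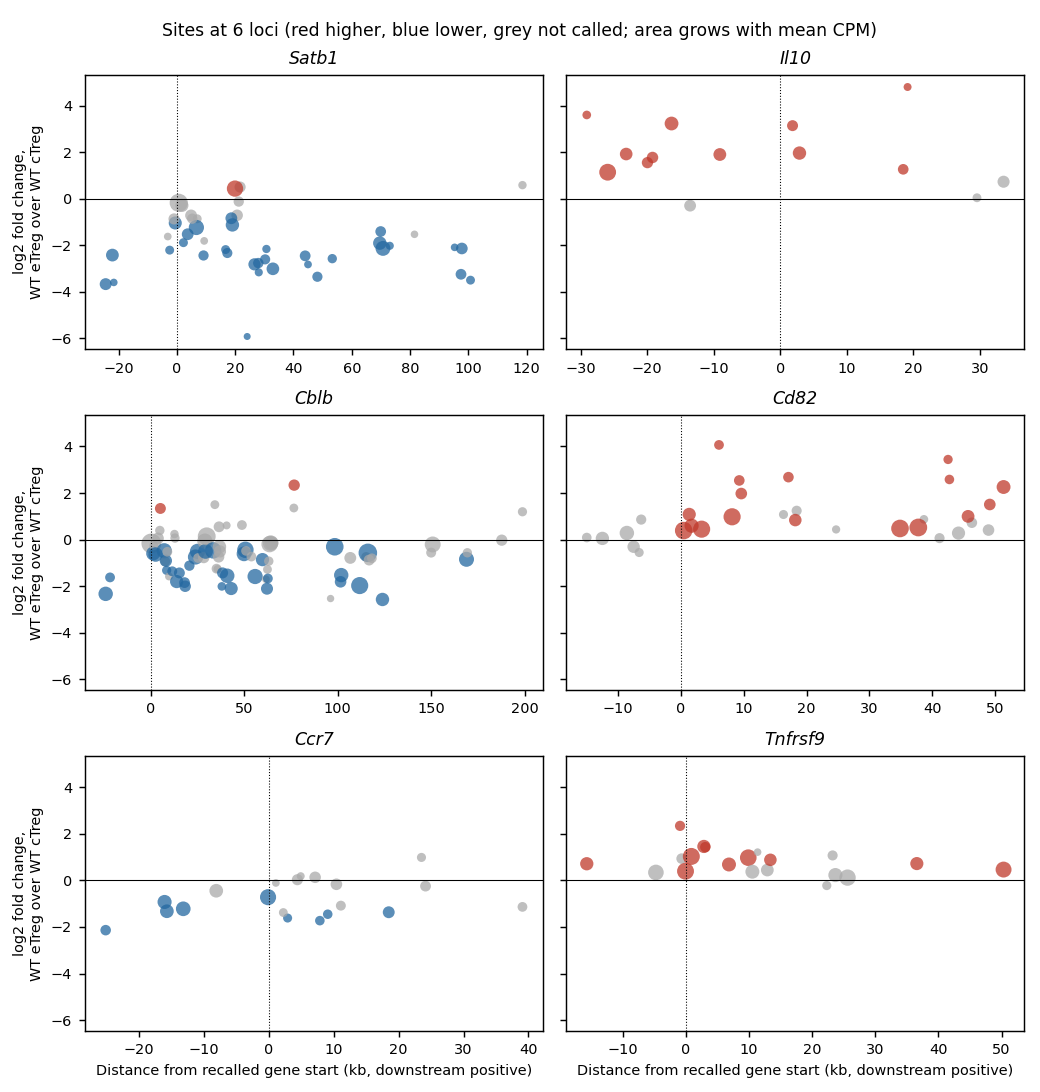
Log2 fold change (WT eTreg over WT cTreg) of every tested site against its distance from the recalled gene start in kb, at 6 loci, with red for called higher, blue for called lower, grey for not called, and an area that grows with mean CPM. Falls spread over the whole Satb1 and Cblb windows while the largest points next to their starts stay near 0, and no site of Il10, Cd82 or Tnfrsf9 is blue.

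Il10, the cytokine gene, had the most one-sided rise: 11 of 14 tested sites rose and none fell, with a median of 1.84. The summed accessibility of the Il10 window was 58.2 ± 0.97 CPM in cTreg and 160 ± 0.37 CPM in eTreg (SD, n = 2 each), 2.76-fold. At chr1:132899907-132900189, 16.4 kb upstream of the recalled start, the cTreg libraries had 2.42 and 1.82 CPM and the eTreg libraries 22.8 and 17.4 (log2 fold change 3.23 ± 0.29 SE, edgeR adjusted p = 1.41e-11). The strongest site of the window, chr1:132890113-132890761, rose from 31.2 and 29.2 to 68.6 and 64.9 CPM. Il19 and Mapkapk2 are the neighbouring genes in RefSeq, and sites far from Il10 may belong to them.

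Inhibitory and costimulatory receptors of effector cells held many of the rises. Tigit, an inhibitory receptor, had 10 rises and 1 fall among 18 sites. At chr16:43661741-43662042 its cTreg libraries had 2.899 and 2.85 CPM and its eTreg libraries 25.0 and 26.5 (3.16 ± 0.24 SE, edgeR adjusted p = 2.67e-13). The strong start-proximal site of Tigit, whose promoter is printed above, rose less, from 75.9 and 68.7 to 100.2 and 92.4 CPM (0.41 ± 0.09 SE), and lost its call without cTreg library 2 (edgeR adjusted p = 0.0545). Klrg1, a marker of terminal effector differentiation, had 6 rises and no fall among 12 sites. At chr6:122243834-122244154 the Klrg1 values were 4.35 and 3.48 CPM in cTreg and 27.4 and 24.6 in eTreg. Pdcd1, which encodes PD-1, had 7 rises and no fall among 21 sites; at chr1:95950029-95950415 values were 19.01 and 15.1 CPM in cTreg and 36.0 and 36.1 in eTreg. Lag3 and Havcr2, further inhibitory receptors, had 1 rise and 1 fall among 18 sites and 2 rises and 1 fall among 14. The Lag3 window overlaps that of Cd4. Its rise, chr6:124851141-124851280, and its fall, chr6:124850547-124850664, are also counted at Cd4, which lies nearby.

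Loci of the TNF receptor family held unlike counts of calls, and the differences between them were not tested. Tnfrsf9, which encodes 4-1BB, had 11 rises and no fall among 20 sites. Its start-proximal site, chr4:150289235-150289928, went from 32.9 and 37.3 to 71.5 and 71.8 CPM (1.03 ± 0.11 SE, edgeR adjusted p = 9.57e-10). The site that covers the recalled start of Tnfrsf9, chr4:150288473-150288853, went from 42.6 and 45.0 to 59.8 and 55.6 CPM, a rise of 0.40 whose call was lost without cTreg library 1 (edgeR adjusted p = 0.124) or eTreg library 1. Tnfrsf8, which encodes CD30, had 10 rises and 2 falls among 52 sites, and its start-proximal site, chr4:144904929-144905360, went from 42.4 and 46.3 to 88.4 and 92.7 CPM. The window of Tnfrsf1b, which encodes TNFR2 and overlaps that of Tnfrsf8, had 4 rises and 5 falls among 52 sites, and its start-proximal site, at 33.7 and 31.6 CPM in cTreg and 34.6 and 34.5 in eTreg, was not called. Tnfrsf18 (GITR) and Tnfrsf4 (OX40), whose windows overlap, had 1 rise and 1 fall each among 17 and 19 sites.

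Cd82, a tetraspanin, had 17 rises and no fall among 31 sites, spread along the gene. At chr2:93251453-93251708, 51.3 kb downstream of the start, the Cd82 values were 3.14 and 4.91 CPM in cTreg and 17.6 and 21.0 in eTreg. Il1r2, a decoy receptor for interleukin 1, had 8 rises and no fall among 15 sites. Its window went from 42.7 ± 0.68 to 102 ± 0.87 CPM in sum (SD, n = 2 each). At chr1:40141475-40141658 the Il1r2 values were 1.53 and 2.22 CPM in cTreg and 10.4 and 12.6 in eTreg. Ccr8, a chemokine receptor of tissue Treg cells, had 3 rises and 1 fall among 15 sites, with chr9:120001059-120001344 going from 18.8 and 12.8 to 38.9 and 39.4 CPM. Cd44, the activation marker, had 5 rises and 2 falls among 21 sites.

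Entpd1 and Ccr2, counted here with effector function, went the other way. Entpd1, which encodes the ATP-degrading enzyme CD39, had 9 falls and no rise among 18 sites (median -0.54); at chr19:40758705-40758902 values were 15.4 and 15.5 CPM in cTreg and 8.99 and 8.82 in eTreg. Ccr2, a chemokine receptor, had 5 falls and no rise among 8 sites, with chr9:124036234-124036454 going from 14.1 and 12.5 to 7.41 and 7.195 CPM, a call lost without cTreg library 1 (edgeR adjusted p = 0.0611). Other members showed few calls. Of the 22 loci of this list, 13 had more rises, 6 more falls and 3 as many of each. Fgl2 had 1 rise and 2 falls among 9 sites (median -0.52) and Il1rl1 1 rise and 2 falls among 10 (median -0.37). Nt5e, which encodes CD73 and acts after CD39, had 1 rise and 2 falls among 14 sites. The Nt5e rise, chr9:88227190-88227639, went from 15.8 and 12.8 to 36.3 and 37.1 CPM. Itgae, the integrin chain CD103, had no call among 12 sites, and Gzmb, a granzyme, 1 rise and 1 fall among 6.

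**Figure D3:**
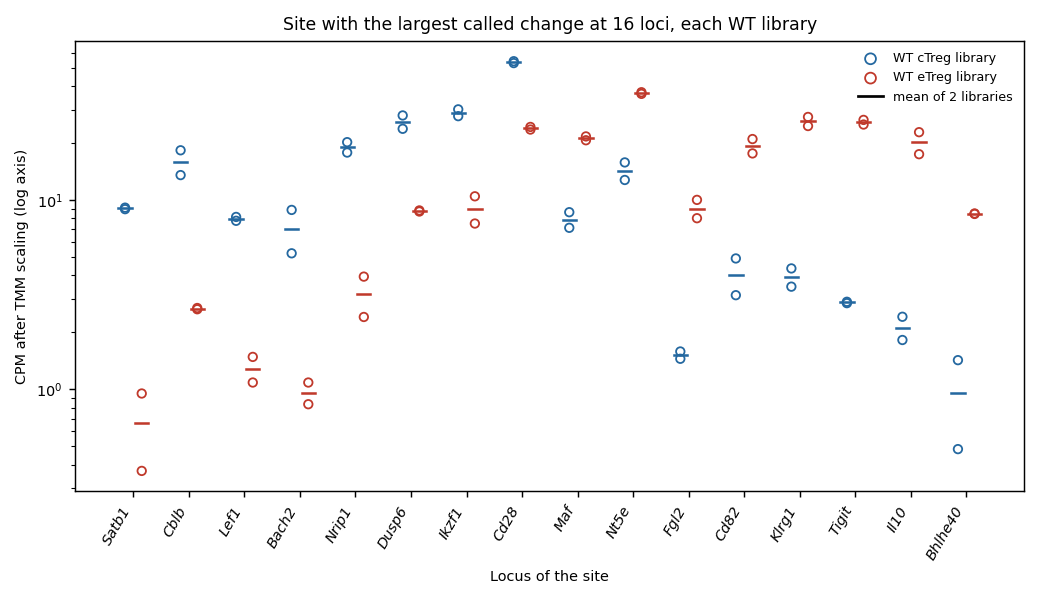
CPM on a log axis of the 2 WT cTreg (blue) and 2 WT eTreg (red) libraries, circles for libraries and bars for means, at the called site of largest change that meets the naming rule at 16 loci. The 2 groups do not overlap at any of these sites, which the rule itself requires. The gap is widest at Satb1 (-3.67) and Il10 (3.23). The sites shown for Fgl2 and Nt5e are the only rises at loci that had 2 falls each.

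Among effector transcription factors only Bhlhe40, a helix-loop-helix factor of activated T cells, had calls at more than 50% of its sites in a single direction: 8 of 15 rose and none fell. Its wide start-proximal site, chr6:108609136-108611024, went from 167 and 173 to 265 and 257 CPM (0.62 ± 0.07 SE, edgeR adjusted p = 5.68e-09). A weak site 11.6 kb downstream, chr6:108622197-108622274, went from 0.483 and 1.43 to 8.43 and 8.48 CPM. Rora, a nuclear receptor, had 11 rises and 5 falls among 40 sites. At chr9:69187660-69187845 the Rora values were 1.93 and 1.82 CPM in cTreg and 8.43 and 7.33 in eTreg, while chr9:68882128-68882720 fell from 72.6 and 66.3 to 51.6 and 52.1 CPM. Prdm1, which encodes Blimp-1, a factor required for IL-10 in Treg cells, had 5 rises and 4 falls among 21 sites, and its start-proximal site at 55.1 and 62.9 CPM in cTreg and 53.6 and 51.2 in eTreg was not called.

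Batf and Irf4, which act together downstream of the T cell receptor, had 3 rises and no fall among 13 sites and 3 falls and no rise among 23. Maf, a factor that can drive Il10, had 2 rises among 11 sites; at chr8:118250761-118251031 values were 8.62 and 7.13 CPM in cTreg and 20.7 and 21.7 in eTreg. Gata3 had 1 rise and 4 falls among 33 sites, Runx1 7 rises and 6 falls among 42, Runx3 3 rises and 1 fall among 18, Ets1 4 of each among 58, Ikzf3 2 rises and 3 falls among 17, and Id2 no call among 14. Ikzf1, which encodes the zinc finger factor Ikaros, resembled the quiescence loci, with 19 falls and 1 rise among 63 sites. At chr11:11619848-11620139 the Ikzf1 values were 27.7 and 30.1 CPM in cTreg and 7.51 and 10.5 in eTreg (-1.66 ± 0.16 SE).

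Treg identity loci held accessible sites in both subsets, and more of them fell than rose. The adjacent Cd28, Ctla4 and Icos loci held 13, 10 and 6 of the list's 53 falls. Of the other identity loci, Foxp3 had 46.2% of its sites called lower. The rest ran from 0% at Ikzf4 to 18.2% at Il2ra, against 14.9% of all sites. The Foxp3 window had 6 falls and no rise among 13 sites, and its summed accessibility was 146 ± 5.86 CPM in cTreg and 116 ± 2.70 CPM in eTreg (SD, n = 2 each). At chrX:7144673-7145079, 11.9 kb upstream of the recalled start and near the next gene, Ppp1r3f, the values were 26.8 and 26.7 CPM in cTreg and 15.3 and 17.6 in eTreg. Il2ra, which encodes CD25, had 2 rises and 6 falls among 33 sites, and its start-proximal site, at 16.1 ± 1.45 CPM in cTreg and 18.2 ± 1.1 in eTreg (SD, n = 2 each), was not called. Ikzf2 (Helios) had 7 rises and 10 falls among 73 sites, with its start-proximal site falling from 67.8 and 74.2 to 50.6 and 50.4 CPM. Ikzf4 (Eos) had no call among 13 sites, and Il2rb 2 rises and 1 fall among 9.

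The costimulatory cluster of Cd28, Ctla4 and Icos on chromosome 1 fell at all of its start-proximal sites. Cd28, the costimulatory receptor, had 13 falls and no rise among 32 sites, and at chr1:60815138-60815429 values were 54.0 and 52.8 CPM in cTreg and 23.5 and 24.3 in eTreg (-1.16 ± 0.13 SE, edgeR adjusted p = 2.09e-09). The Icos start-proximal site, chr1:61034600-61034844, went from 58.0 and 58.4 to 34.9 and 29.1 CPM, and 6 of 15 sites fell while 3 rose. Ctla4, the inhibitory counterpart of CD28, had 10 falls and 3 rises among 34 sites. Its start-proximal site went from 65.2 and 60.8 to 52.2 and 51.9 CPM, a fall of 0.28 on the log2 scale that was no longer called when any of the 4 WT libraries was left out (edgeR adjusted p up to 0.243), with no count filter or with DESeq2. The Cd28 start-proximal site, which fell by 0.39, lost its call without cTreg library 2. At chr1:60959374-60959492, 6.47 kb upstream of Ctla4, the values rose from 1.61 and 0.792 to 7.97 and 9.44 CPM (2.85 ± 0.37 SE).

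Genes induced by the T cell receptor or restraining its signal held more falls than rises. Nrip1, Dusp6 and Dusp5 held 22, 15 and 8 of the list's 56 falls. The share called lower was 29.4% at Egr2, 16.7% at Nr4a3, 14.3% at Nr4a2, 8.70% at Nr4a1 and 0% at Tnfaip3. Over all sites it was 14.9%. Dusp6, a phosphatase of the ERK kinases, had 15 falls and no rise among 20 sites, the highest share of falls at any locus with at least 8 tested sites. At chr10:98747257-98747902 the Dusp6 values were 27.9 and 23.8 CPM in cTreg and 8.80 and 8.69 in eTreg (-1.56 ± 0.17 SE). Dusp5, another such phosphatase, had 8 falls and no rise among 24 sites. Nrip1, a corepressor of nuclear receptors, had 22 falls and 2 rises among 58; at chr16:76310616-76310843 values were 17.8 and 20.2 CPM in cTreg and 2.41 and 3.94 in eTreg. Egr2, a zinc finger factor, had 5 falls and 1 rise among 17 sites, and Tnfaip3, which encodes A20, no call among 25.

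The 3 members of the Nr4a family, orphan nuclear receptors induced by antigen, held unlike counts of calls, a difference that was not tested. The Nr4a1 window had 2 falls and no rise among 23 sites and Nr4a3 1 rise and 3 falls among 18. Nr4a2 had 3 rises and 1 fall among 7 sites; its start-proximal site, chr2:56966468-56968443, went from 75.4 and 81.2 to 115 and 113 CPM (0.54 ± 0.09 SE). The Nr4a1 start-proximal site, at 60.7 and 63.5 CPM in cTreg and 68.8 and 66.7 in eTreg, was not called.

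Start-proximal sites were set beside the rest of their loci, a contrast looked at after the values had been seen. The 52 start-proximal sites had a median of 55.8 CPM and a median absolute log2 fold change of 0.22. Of these sites 11 rose (21.2%) and 12 fell (23.1%). With loess offsets 11 rose and 15 fell. The other 1795 tested sites had a median of 3.37 CPM, a median absolute change of 0.58, 198 rises (11.03%) and 412 falls (22.95%). Over all tested sites 13.8% rose and 14.9% fell. Strength differs between the 2 sets, and some start-proximal sites, such as that of Il2ra, are under 30 CPM. Among the 126 other sites of at least 30 CPM (median 42.2 CPM) the median absolute change was 0.26, near that of the start-proximal sites. Of these 126 sites, 24 rose (19.05%) and 37 fell (29.4%). Over all tested sites of at least 30 CPM the median absolute change was 0.20, and 26.6% rose and 13.03% fell. At effector receptor loci the 11 start-proximal sites had a median absolute change of 0.39, against 0.23 at 27 other sites of that strength. At Cblb the start-proximal site, at 265 and 288 CPM in cTreg and 248 and 245 in eTreg, was not called (-0.16, edgeR adjusted p = 0.0641), beside a median of -0.74 at the other 76 sites. Nrip1 (-0.15 against -0.68), Lef1 (0.08 against -0.73), Dusp5 (0.07 against -0.73) and Ikzf1 (0.10 against -0.42) had the same pattern, with no start-proximal site called. The start-proximal sites of Cblb and Nrip1 were, however, called lower in at least 1 alternative fit. Their log2 fold changes reached -0.30 and -0.28 in the alternative fits. Those of Lef1, Dusp5 and Ikzf1 were called in none. Start sites that changed more than the median of their locus included those of Icos (-0.87 against -0.47), Ccr8 (1.02 against -0.10, the site nearer its start at 1.31 being among the others) and Tnfrsf8 (1.03 against 0.21).

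**Figure D4:**
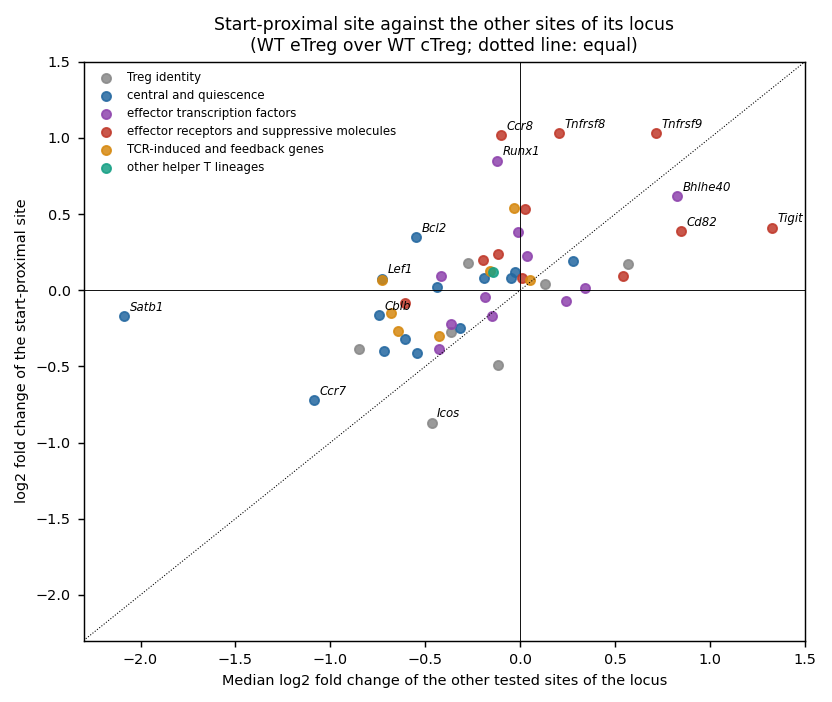
Log2 fold change (WT eTreg over WT cTreg) of the start-proximal site against the median of the other tested sites of the same locus, for the reported loci with such a site, coloured by list, with a dotted line where both are equal. Satb1 lies at -2.08 on the horizontal and -0.17 on the vertical axis, and Tnfrsf9, Tnfrsf8 and Ccr8 lie near 1 on the vertical axis.

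Loci of other helper T lineages and cell type markers were set beside these. The 2 helper lineage loci, Tbx21 and Bcl6, are among the 72 loci and in their counts, while the markers are not. Tbx21, which encodes T-bet of type 1 helper cells, had 1 rise among 6 sites and Bcl6, of follicular helper cells, 2 falls among 19. Of the T cell markers, Cd3e had no call among 15 sites and Cd4 2 rises and 1 fall among 13. The Cd4 window overlaps that of Lag3, and 1 rise and 1 fall are counted at both. Markers of other cell types held 26 tested sites at 8 loci, with 4 rises and 5 falls. No site lay in the windows of Ms4a1 (B cells) and Lyz2 (myeloid cells). Summed accessibility at the 8 windows ranged from 0 to 88.8 CPM in cTreg and from 0 to 102 CPM in eTreg, with Spi1 the highest in both. Both tested sites at Pax5, a B cell factor, rose (8.38 ± 0.47 to 18.6 ± 0.75 CPM in sum, SD, n = 2 each), while Cd8a had 3 falls among 5 and Ebf1, another B cell factor, 2 among 4. Whether other cells took part in the results above was not tested.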

How the data were processed

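The submitters' processing notes name mm9 and the tools MACS2 2.1.1, Trimmomatic 0.36, bedtools, SAMtools and Picard 2.9.4; aligner, read-end shift and peak threshold: not given in the sources used here. The authors deposited raw counts per peak for 8 libraries in 1 table, assigned by sample title. Whether starts count from 0 or 1 is not stated.

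All 8 libraries were fitted with a mean per group in edgeR 4.0.16 (R 4.3.3, filterByExpr, TMM, quasi-likelihood, Benjamini-Hochberg adjustment). The model was also run on simulated counts with 200 changed sites and the same spread for all sites of a group. These settings differ from the data, so that run is no measure of the model's errors here. The shared spread includes the shallow Pggt1b-deficient eTreg libraries. Members and lists were chosen with earlier results of these data known. Locus windows came from recalled positions, partly shifted from a later build, not from an annotation file; hence no site is assigned to a promoter, exon or intron. RefSeq (GRCm38.p6) gave names, neighbours and promoters only. At each locus the named site was the called one of largest absolute log2 fold change among sites with a mean count of at least 50 and no overlap between groups. Same-numbered WT libraries did not deviate together beyond r = 0.057 and were not paired. Alternatives used limma 3.58.1 and DESeq2 1.42.0. Fold changes are log2 and SE is the model's. The values of 1 locus of the central and quiescence list are not reported here; its sites are in the list's counts.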

Additional observations from a re-analysis of the deposited data

Results flagged for a closer look

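At 8 of the sites named by rule or called start-proximal above, the eTreg against cTreg difference was itself different in Pggt1b-deficient cells (edgeR interaction, adjusted p under 0.05; 1.51% of all sites were so called). The rule named 69 sites, and 52 sites at Treg loci were start-proximal. The Pggt1b-deficient eTreg libraries had only 2255214 and 1664702 counts; the part of depth was not tested. Values are interaction log2 fold changes, Pggt1b-deficient minus WT. The rule picked sites for a large WT change, and the same WT change is subtracted here. A sign opposite to the WT change was therefore favoured by the choice, and the signs are not read as a result. At 4 sites that fell in WT eTreg the difference was above 0: Foxp3 chrX:7144673-7145079 (0.942853, edgeR adjusted p = 0.0446), Cd28 chr1:60815138-60815429 (0.769889, edgeR adjusted p = 0.0480), Ikzf1 chr11:11619848-11620139 (1.21193, edgeR adjusted p = 0.0082) and Nrip1 chr16:76310616-76310843 (1.65361, edgeR adjusted p = 0.0287). At 3 sites that rose in WT eTreg it was below 0: Gata3 chr2:9788878-9788951 (-3.00124), Itgb8 chr12:120478364-120478635 (-2.8577) and Ccr8 chr9:120001059-120001344 (-1.13286). Itgb8 encodes an integrin chain that activates TGF-beta. Its start-proximal site chr12:120476261-120477593 had -0.583753. That site was not called in WT, but was called in at least 1 alternative fit. In Pggt1b-deficient cells the Ccr8 site had 13.9 ± 3.70 CPM in cTreg and 15.7 ± 1.27 in eTreg, and the Ikzf1 site 38.3 ± 0.70 and 28.6 ± 7.39 (SD, n = 2 each).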

How the results depend on the processing

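Of the sites called in WT eTreg, none was called in the opposite direction in any of the 12 alternative fits that tested it. DESeq2 called 6745 sites higher and 7231 lower. With a WT library left out, 5758 to 6641 were called higher and 6710 to 7572 lower; in these fits the lone library is assumed to vary like the other groups. The WT libraries alone gave 13403 and 13851, and no scaling factor 9251 and 12172. The replicate block gave 9699 and 10513; the replicate numbers did not pair the libraries. Of 69 sites named by the rule, 12 to 18 lost their call with a library left out, 12 with DESeq2, 5 with no scaling factor and 5 with loess offsets, and none reversed. Of 633 called sites at the Treg loci, 270 kept their call in every fit that tested them. The median at Tnfrsf18, 0.12, was -0.169299 without eTreg replicate 1 and 0.160808 without eTreg replicate 2, and that at Havcr2, 0.13, was -0.207728 with a flank of 100 kb; the cause was not tested. With that flank the median of the effector receptor list was 0.09. The median absolute log2 fold change was 0.70 at sites under 3 CPM and 0.20 at 30 CPM or more; weak sites rest on few counts.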

Other observations

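With TMM scaling, direction varied with the strength of the site. Of 8742 tested sites with a mean of at least 30 CPM, 26.6% rose and 13.03% fell in WT eTreg (median log2 fold change 0.10), whereas of 30950 sites under 3 CPM, 8.78% rose and 12.2% fell (median -0.09). Between 10 and 30 CPM, 18.2% rose and 19.2% fell. This split was not made with loess offsets. At the Treg loci those offsets took the median of the 126 strong sites (at least 30 CPM) that were not start-proximal from -0.03 to -0.07. The median of all 1795 sites that were not start-proximal went from -0.21 to -0.17. At the central and quiescence loci, 19 of the 128 sites of at least 10 CPM that were not start-proximal rose (14.8%) and 51 fell (39.8%). Over all sites, both strength classes from 10 CPM upward had larger shares of rises and smaller shares of falls.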
